A study of Mus musculus with 4 samples.

Results

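The genes of fatty acid and triglyceride synthesis were followed in liver RNA from male mice that were wild type or catalase knockout. They are 36 genes, listed by name and found through the transcript accession that each array probe carries, and all 36 were among the 20886 genes that could be named on the array. They fall into 5 steps: 4 genes of acetyl-CoA and NADPH supply, 5 of fatty acid synthesis, 10 of elongation and desaturation, 14 of glycerolipid assembly and 3 that control the pathway. The 4 groups were wild type on normal diet (18% of calories from fat), wild type on high-fat diet (60.3%), catalase knockout on normal diet and catalase knockout on high-fat diet. Each diet lasted 11 weeks, between 29 and 40 weeks of age. Each group had 1 array, and the labels do not say whether an array held RNA from 1 animal or a pool, so no value here has a replicate. The strain, the design of the catalase allele and the tissues it affects are unstated in the labels.

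In the liver, citrate leaves the mitochondrion through the carrier Slc25a1 and is split by ATP citrate lyase (Acly) to acetyl-CoA. Acetyl-CoA carboxylases (Acaca, Acacb) and fatty acid synthase (Fasn) then build palmitate, with NADPH from malic enzyme (Me1) among other sources. Elongases and desaturases lengthen and unsaturate the chain, and acyltransferases and lipins join the chains to glycerol as triglyceride. The insulin- and sterol-regulated factor SREBP-1c (Srebf1) and the glucose-responsive factor ChREBP (Mlxipl) switch on much of this set. Dietary fat, above all polyunsaturated fat, is known to lower SREBP-1c activity in liver, while a fatty liver can take up and re-esterify fatty acids without making them.

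Of 39429 probes, 23760 to 25184 were well above background on an array by the scanner's own flag, and 0 spots were saturated. The catalase gene Cat, the target of the knockout, was read by 2 probes, with log2 differences (knockout minus wild type) of -3.76 and -4.17 on normal diet and -3.81 and -4.39 on high-fat diet. Whether the deletion covers these probes is not known from the labels. All 10 hepatocyte markers, Alb and Ttr among them, were well above background on all 4 arrays. Levels below are log2 processed signal minus the 75th percentile of the array. They compare 1 probe between arrays and never 1 gene with another, because probes differ in brightness. A gene is said to rise or fall where the difference reached 2-fold with the probe well above background in both samples. Where it was so in 1 sample, the dim array took the lowest such signal, or the probe's own if that was larger. A size is then written as "at least", and it makes no allowance for the scanner's error. The error after ± is the scanner's error of a difference. It covers spot measurement and leaves out the spread between animals, so no p-value is given for a comparison of 2 arrays.

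Promoters from the RefSeq table (build GRCm38.p6) were read for the members, and some are printed below. Those of Me1 and Lpin1, genes that also reached 2-fold, are not printed. The table held 29 of the 36 genes, with 42 start sites between them. Elovl3, Scd1, Scd2, Fads1, Gpd1, Dgat1 and Dgat2 were not in it. The first 3 promoters below are of supply genes with lower values on high-fat diet in both genotypes. For Slc25a1 the wild-type difference lies within 2 scanner errors of 0. The next 2 are of Fads2 and Fads3, which are neighbours on chromosome 19 and had opposite diet differences. The last 3 are of Pnpla3 and Pnpla5, neighbours on chromosome 15 that were brightest on the same array, and of Mogat1, the gene with the largest rise among members measured above background. Each line gives 150 bases that end just before the start site, read 5′ to 3′ on the strand of the gene. Capitals mark GGGCGG (the core of an Sp1 site), CCAAT (bound by NF-Y) or CACGTG (an E-box), or the reverse complement of one of these.
Acss2, chr2:155517893-155518042, plus strand: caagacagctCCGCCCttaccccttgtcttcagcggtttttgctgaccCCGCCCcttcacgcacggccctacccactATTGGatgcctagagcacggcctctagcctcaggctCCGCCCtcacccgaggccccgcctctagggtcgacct
Acly, chr11:100528001-100528150, minus strand: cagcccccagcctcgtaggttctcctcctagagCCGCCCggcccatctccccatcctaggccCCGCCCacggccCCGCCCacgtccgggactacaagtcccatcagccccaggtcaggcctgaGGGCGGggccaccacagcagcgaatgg
Slc25a1, chr16:17928220-17928369, minus strand: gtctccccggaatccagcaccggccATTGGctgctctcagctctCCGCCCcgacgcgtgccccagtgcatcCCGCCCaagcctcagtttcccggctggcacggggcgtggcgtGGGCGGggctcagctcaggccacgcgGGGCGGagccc
Fads2, chr19:10101504-10101653, minus strand: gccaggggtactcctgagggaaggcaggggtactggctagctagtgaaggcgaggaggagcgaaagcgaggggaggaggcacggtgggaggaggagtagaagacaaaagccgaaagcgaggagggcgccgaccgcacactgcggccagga
Fads3, chr19:10041398-10041547, plus strand: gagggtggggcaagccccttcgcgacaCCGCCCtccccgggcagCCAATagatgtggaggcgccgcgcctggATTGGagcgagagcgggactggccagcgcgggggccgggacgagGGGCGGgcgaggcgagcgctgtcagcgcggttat
Pnpla3, chr15:84167666-84167815, plus strand: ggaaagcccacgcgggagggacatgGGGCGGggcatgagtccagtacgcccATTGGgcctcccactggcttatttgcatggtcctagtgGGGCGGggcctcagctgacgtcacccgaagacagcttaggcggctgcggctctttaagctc
Pnpla5, chr15:84123176-84123325, minus strand: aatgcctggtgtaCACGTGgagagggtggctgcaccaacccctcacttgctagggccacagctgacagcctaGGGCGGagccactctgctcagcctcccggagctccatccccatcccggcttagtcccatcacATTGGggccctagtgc
Mogat1, chr1:78510910-78511059, plus strand: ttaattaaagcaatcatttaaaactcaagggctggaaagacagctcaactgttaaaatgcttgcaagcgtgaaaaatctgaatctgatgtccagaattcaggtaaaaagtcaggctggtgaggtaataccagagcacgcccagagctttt

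Over 250 bases before the start, on both strands, GGGCGG was found in 19 of the 29 genes (65.5%, against 35.4% of 27025 genes in the table) and CCAAT in 17 (58.6%, against 37.5%). Members have more start sites per gene than the table as a whole. Counted by start site, the shares were 57.1% of 42 against 32.7% of 32851 for the Sp1 core, and 42.9% against 33.8% for the NF-Y box. CACGTG was found in 5 genes, Elovl5, Lpin2, Mlxipl, Pnpla5 and Slc25a1 (17.2%, against 6.86%). A sterol response element written TCACCCCAC was found in 0 member genes and in 0.555% of all genes. The looser form TCACNCCAC was found in Mlxipl alone among the members (3.45%, against 1.22%). Of 15 sterol synthesis and uptake genes in the table, 1 held each form, so this window cannot tell whether members lack such elements. CCAAT and GGGCGG were each found in 14 of those 15. The nuclear receptor repeats DR4 and DR1 and the carbohydrate response element pair were found in 0 member genes, and in 0.0148%, 0.0407% and 0% of all genes. The windows differ in base composition between genes, and these matches describe letters, not bound factors. Mogat1, like Acaca, Agpat3, Elovl6, Lpin1 and Mttp, held none of the searched motifs in 250 bases. Acss2 held 4 copies of GGGCGG and 1 of CCAAT, and Acly held 4 of GGGCGG and 0 of CCAAT.

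**Figure D1:**
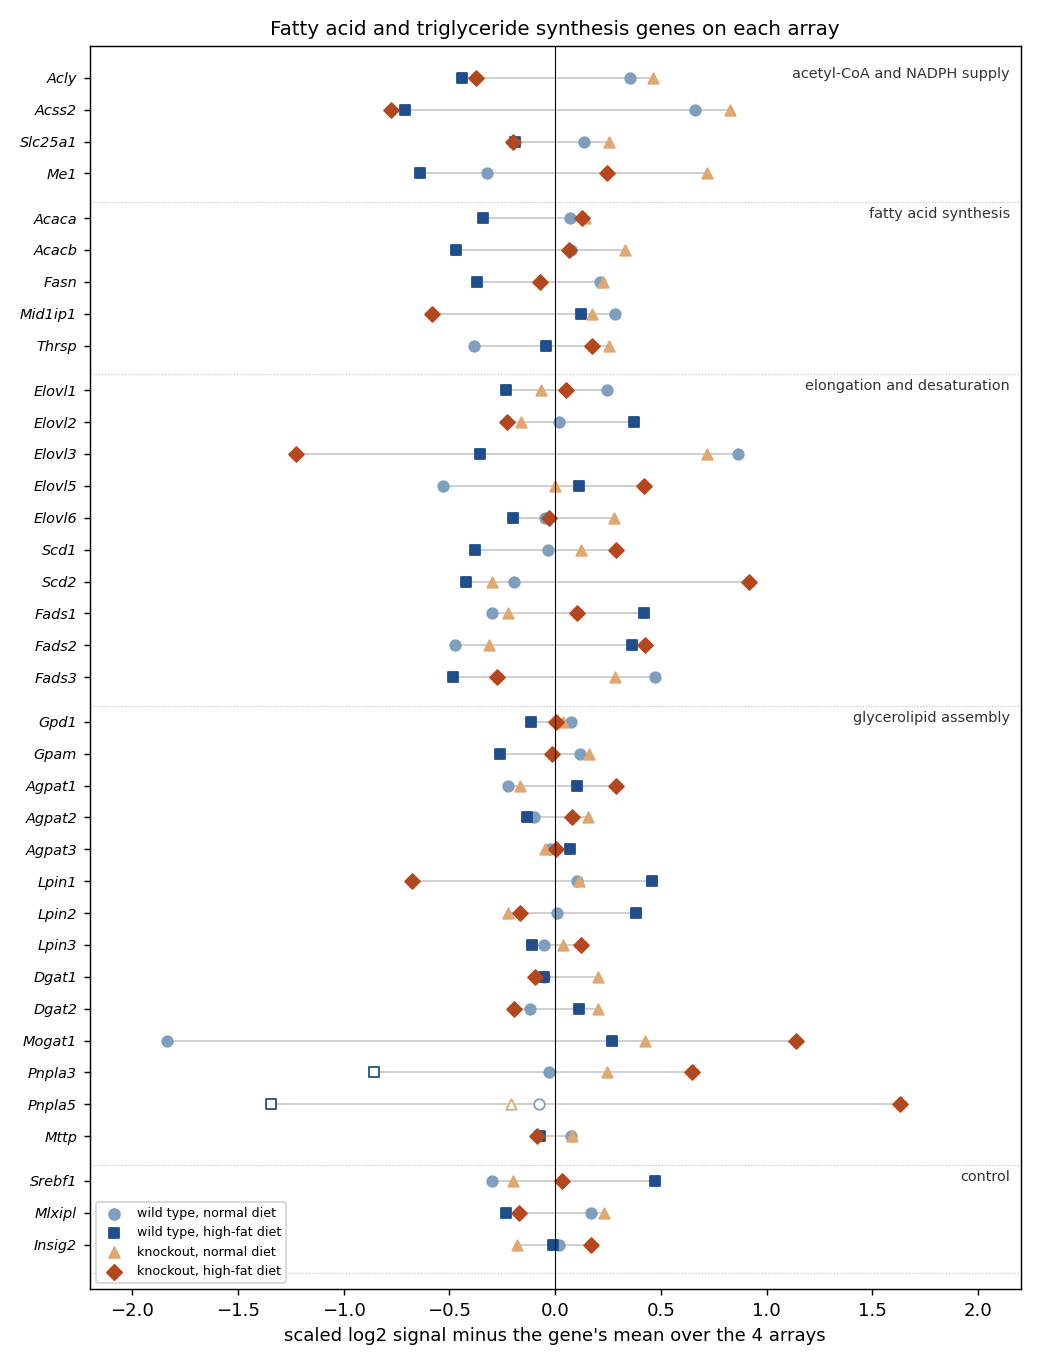
Scaled log2 signal of each of the 36 genes on the 4 arrays, each gene shown relative to its own mean, grouped by step. Open symbols mark probes not well above background. Mogat1 spans 2.97 and Elovl3 2.09 log2 units, whereas Agpat3 spans 0.116.

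The supply genes had lower values on high-fat diet in both genotypes, though in wild type only Acss2 and Acly differed by more than 2 scanner errors. All 4 had negative diet differences in each, with a median of -0.56 in wild type and -0.66 in the knockout, against -0.02 and -0.07 over all genes measured on both arrays. Acss2, which makes acetyl-CoA from acetate, is the member that fell. Its log2 level was 5.08 on normal diet and 3.70 on high-fat diet in wild type, then 5.24 on normal diet and 3.64 on high-fat diet in the knockout, and levels of other genes are quoted in this order. Both high-fat arrays were low and both normal-diet arrays high. In wild type Acss2 fell by 1.37 ± 0.20 (2.59-fold) with diet. In the knockout it fell by 1.60 ± 0.20 (3.04-fold). The second probe gave -1.56 and -1.86. The genotypes were close on either diet, at 0.17 ± 0.20 and -0.06 ± 0.20. Acly, which splits cytosolic citrate, gave -0.80 ± 0.20 and -0.84 ± 0.20, under 2-fold on its brighter probe. On its second probe the wild-type difference was -1.31, past 2-fold, and the knockout one -0.70. Slc25a1 gave -0.33 ± 0.20 and -0.45 ± 0.20, and Me1 -0.32 ± 0.20 and -0.48 ± 0.20. In wild type both lie within 2 scanner errors of 0.

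Me1, which makes NADPH from malate, was higher in the knockout on both diets. Its levels were 4.37, 4.05, 5.41 and 4.94 on the 4 arrays. Both knockout arrays were above both wild-type arrays. Me1 rose in the knockout on normal diet by 1.04 ± 0.20 (2.06-fold), just over the size rule, and gave 0.89 ± 0.20 on high-fat diet, just under it. Its further probes gave 0.69 and 0.87 on normal diet and 0.88 and 0.86 on high-fat diet, so the sign was the same on all 3 probes and the call rested on 1.

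None of the 5 fatty acid synthesis genes reached 2-fold in any comparison. In wild type, Acaca (-0.41 ± 0.20), Acacb (-0.54 ± 0.20) and Fasn (-0.58 ± 0.20) were lower on high-fat diet, and in the knockout they gave -0.01, -0.27 and -0.30. The gap between the genotypes was 0.40 ± 0.29 for Acaca and 0.28 ± 0.29 for Acacb and Fasn, within 2 scanner errors for each. Mid1ip1, which activates acetyl-CoA carboxylase, had the largest difference of the step. Its levels were 3.52, 3.36, 3.41 and 2.65. The knockout on high-fat diet was the low array, with -0.76 ± 0.20 for diet in the knockout and -0.71 ± 0.20 for genotype on high-fat diet. Thrsp, a nuclear lipogenic factor, was 0.64 ± 0.20 above wild type in the knockout on normal diet and 0.22 ± 0.20 above it on high-fat diet.

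**Figure D2:**
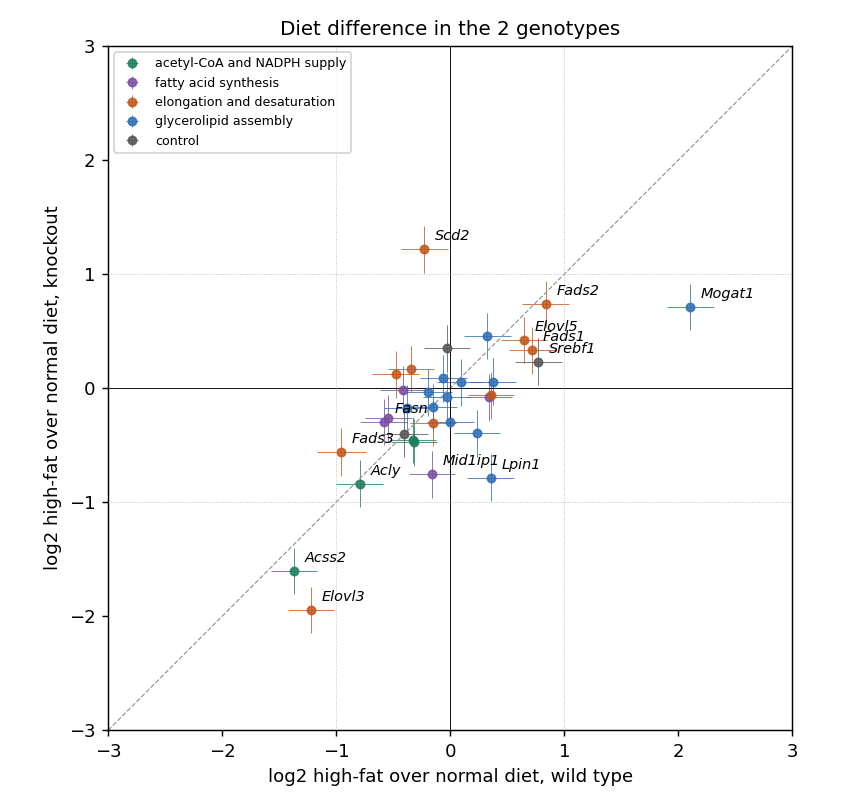
Diet difference (high-fat minus normal, log2) of each member in wild type on the horizontal axis and in the knockout on the vertical axis, for the 34 measured on all 4 arrays, with bars for the scanner error. Acss2 and Elovl3 lie past -1 on both axes, Mogat1 lies at 2.10 and 0.71, and Scd2 at -0.23 and 1.22.

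Among the elongases, Elovl3, which extends saturated chains and is known for a strong daily rhythm in liver, fell on high-fat diet in both genotypes. Its levels were 3.15, 1.93, 3.00 and 1.06. The high-fat arrays were both below the normal-diet arrays, and the knockout on high-fat diet was lowest. With diet, Elovl3 fell by 1.22 ± 0.20 (2.33-fold) in wild type. In the knockout it fell by 1.94 ± 0.20 (3.85-fold). Elovl5, which extends polyunsaturated chains, went the other way at 0.64 ± 0.20 and 0.42 ± 0.20, under 2-fold. Elovl6, which takes palmitate to stearate, gave -0.15 and -0.31, and Elovl1 -0.48 and 0.12. Elovl2 gave 0.36 and -0.06. The clock repressor gene Nr1d1 also fell with diet, with -1.14 in wild type and -1.38 in the knockout. It was the lowest of 13 clock genes in each. Their medians were 0.34 and -0.23, with 8 positive in wild type and 5 in the knockout. The labels give no hour of sampling, and its part in the Elovl3 values was not tested.

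The polyunsaturated-fat desaturases Fads1 and Fads2 gave 0.72 ± 0.20 and 0.84 ± 0.20 for diet in wild type and 0.33 ± 0.20 and 0.74 ± 0.20 in the knockout. Their neighbour Fads3 gave -0.96 ± 0.21 and -0.56 ± 0.21. None reached 2-fold, but all 3 differences in wild type exceeded 1.5-fold. In the gene table Fads2 lies next to both Fads1 and Fads3, with 0 protein-coding genes between it and either.

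The stearoyl-CoA desaturases, which put in the first double bond, split by array. Scd1, the main liver form, stood at 7.13, 6.79, 7.29 and 7.45, with no call in any comparison and its largest difference 0.67 ± 0.20, between genotypes on high-fat diet. Scd2, a form better known in brain, was at -1.37, -1.60, -1.47 and -0.25. Its 3 other arrays lay within 0.23 of each other, and the knockout on high-fat diet stood alone above them. Scd2 rose by 1.22 ± 0.21 with diet in the knockout (2.32-fold) and by 1.34 ± 0.21 with genotype on high-fat diet (2.53-fold). In wild type its diet difference was -0.23 ± 0.21.

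Of the 14 glycerolipid genes, 4 were called in at least 1 comparison (28.6%, against 10.6% of 15325 genes), Pnpla3 and Pnpla5 only through bounds on dim probes. Mogat1, which acylates monoacylglycerol, stood at -2.29, -0.18, -0.03 and 0.68. The wild-type normal-diet array was low and the other 3 high. Mogat1 rose by 2.10 ± 0.21 with diet in wild type (4.30-fold) and by 2.26 ± 0.21 with genotype on normal diet (4.79-fold). Both values rest on the single wild-type normal-diet array. Its diet difference in the knockout was 0.71 ± 0.20 and its genotype difference on high-fat diet 0.87 ± 0.20, both under 2-fold.

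Lpin1, a phosphatidate phosphatase that is also a transcriptional co-regulator, stood at 3.62, 3.98, 3.63 and 2.84. The knockout on high-fat diet was the low array. Lpin1 fell by 1.13 ± 0.20 with genotype on high-fat diet (2.19-fold), and its second probe gave -1.49. The diet difference was 0.35 ± 0.20 in wild type and -0.79 ± 0.20 in the knockout. Lpin2 gave -0.55 ± 0.20 and Lpin3 0.23 ± 0.20 for genotype on high-fat diet.

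Pnpla3 and Pnpla5, patatin-like lipid hydrolases of which Pnpla3 is known for its link to human fatty liver, were dim. Pnpla3 stood at -4.55, -5.38, -4.28 and -3.87 and was well above background on 3 arrays, the exception being wild type on high-fat diet. For genotype on high-fat diet it was at least 2.84-fold higher in the knockout, which is also the measured ratio, with a log2 error of 0.48. Its second probe was well above background on the knockout high-fat array alone. On that probe Pnpla3 was at least 2.49-fold higher for genotype on high-fat diet, with a log2 error of 0.81. It was at least 2.62-fold higher for diet in the knockout, with an error of 0.54, where the brighter probe gave 0.40 ± 0.29. Pnpla5 stood at -5.51, -6.78, -5.64 and -3.80 and was well above background on the knockout high-fat array alone. There it was at least 3.18-fold above the knockout normal-diet array and at least 3.03-fold above the wild-type high-fat array. The log2 errors of these differences were 0.46 and 0.99. Its processed signals were 22.1, 9.30, 20.1 and 82.7, where the lowest signal of any probe that counted as well above background was 21.5. With normexp background correction neither gene reached 2-fold: the log2 differences were 0.57 for Pnpla5 with diet in the knockout, and 0.68 for Pnpla5 and 0.56 for Pnpla3 with genotype on high-fat diet.

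The remaining assembly genes had no call. Gpd1, Gpam, Agpat1, Agpat2, Agpat3, Lpin2, Lpin3, Dgat1, Dgat2 and Mttp, which cover glycerol-3-phosphate, its acylation, the final acylation and the loading of triglyceride onto lipoproteins, stayed under 1.5-fold in all 4 comparisons. Dgat2, the last acylation step, gave 0.23 ± 0.20 for diet in wild type and -0.40 ± 0.20 in the knockout. Mttp differences lay between -0.17 and 0.00.

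**Figure D3:**
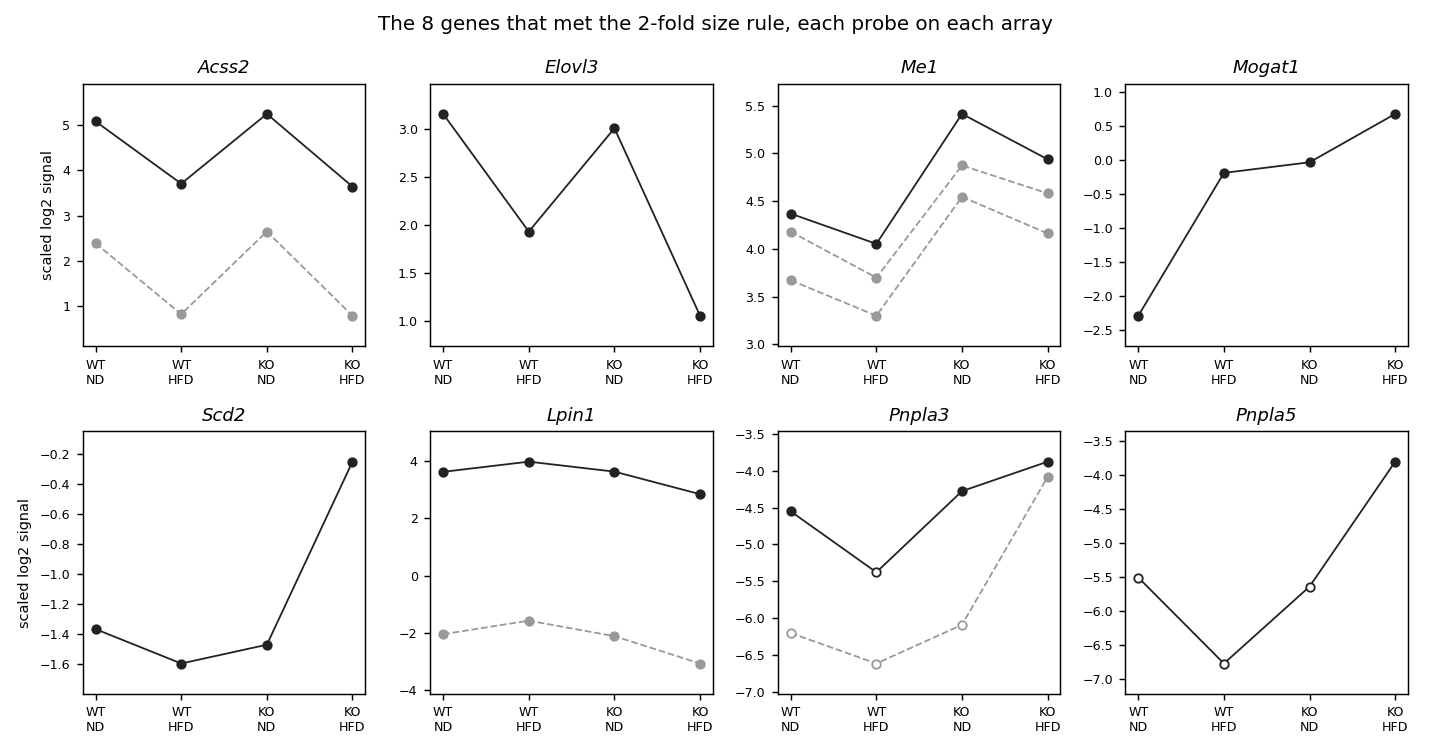
Scaled log2 signal of every probe of the called members on the 4 arrays, with normal diet and high-fat diet side by side for each genotype. Filled points were well above background and open points were not, and the solid black line is the brightest probe.

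The 3 control genes had no call. Srebf1 stood at 0.55, 1.32, 0.65 and 0.88, the wild-type high-fat array being highest, with 0.77 ± 0.20 for diet in wild type and 0.23 ± 0.20 in the knockout. Mlxipl gave -0.40 ± 0.20 for diet in both genotypes on its brighter probe and 0.24 and 0.14 on its second, so its 2 probes had opposite signs. Insig2, which holds SREBP in the endoplasmic reticulum, gave -0.03 and 0.35.

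Over all 36 genes, few were called in any comparison. With diet in wild type, 1 gene rose (2.86% of 35 that could be called, against 1.78% of all genes) and 2 fell (5.71%, against 2.31%). With diet in the knockout, 2 rose (5.56% of 36, against 4.22%) and 2 fell (5.56%, against 1.64%). Between genotypes on normal diet, 2 rose (5.71% of 35, against 1.40%) and 0 fell (against 2.50%). Between genotypes on high-fat diet, 3 rose (8.33% of 36, against 2.51%) and 1 fell (2.78%, against 1.59%). Of those 3 rises, 2 were bounds on the dim probes of Pnpla3 and Pnpla5. Over all genes, 120 of 373 rises there were bounds. With diet in the knockout, 1 of the 2 rises was the Pnpla5 bound, against 151 of 629 over all genes. With normexp correction 1 member rose in each of these 2 comparisons. Each member count is 3 genes or fewer, and these counts are given as a description. In at least 1 of the 4 comparisons 8 of the 36 genes were called (22.2%, against 10.6% of all genes), Pnpla3 and Pnpla5 only through bounds. The other 28 were not. The 28 spanned 0.116 to 0.956 log2 units over the arrays.

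At the looser size of 1.5-fold, 5 members were that much higher with diet in wild type (Elovl5, Fads1, Fads2, Mogat1 and Srebf1), against 4.45% of all genes, and 5 lower (Acly, Acss2, Elovl3, Fads3 and Pnpla3), against 6.51%. Every Pnpla3 and Pnpla5 entry in this paragraph is a bound on a dim probe. For diet in wild type Pnpla3 gave -0.83 with an error of 0.52, and -0.83 to -0.02 over the processing alternatives. With diet in the knockout 4 were that much higher (Scd2, Fads2, Mogat1 and Pnpla5), against 9.52%, and 5 lower (Acly, Acss2, Mid1ip1, Elovl3 and Lpin1), against 5.68%. Fads2, Mogat1, Acly, Acss2 and Elovl3 stood in both diet comparisons with the same sign. Between genotypes on normal diet 3 were higher (Me1, Thrsp and Mogat1), against 3.89%, and 0 lower, against 6.65%. On high-fat diet 6 were higher in the knockout (Me1, Scd1, Scd2, Mogat1, Pnpla3 and Pnpla5), against 7.34%, and 4 lower (Mid1ip1, Elovl2, Elovl3 and Lpin1), against 4.36%.

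Scaling each array by its median moved the all-gene median by -0.11 for diet in the knockout and by 0.14 for genotype on normal diet. The all-gene split then went from 629 up and 245 down to 510 and 323 in the first, and from 206 and 368 to 264 and 285 in the second, while the member calls stayed at 2 and 2 and at 2 and 0.

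**Figure D4:**
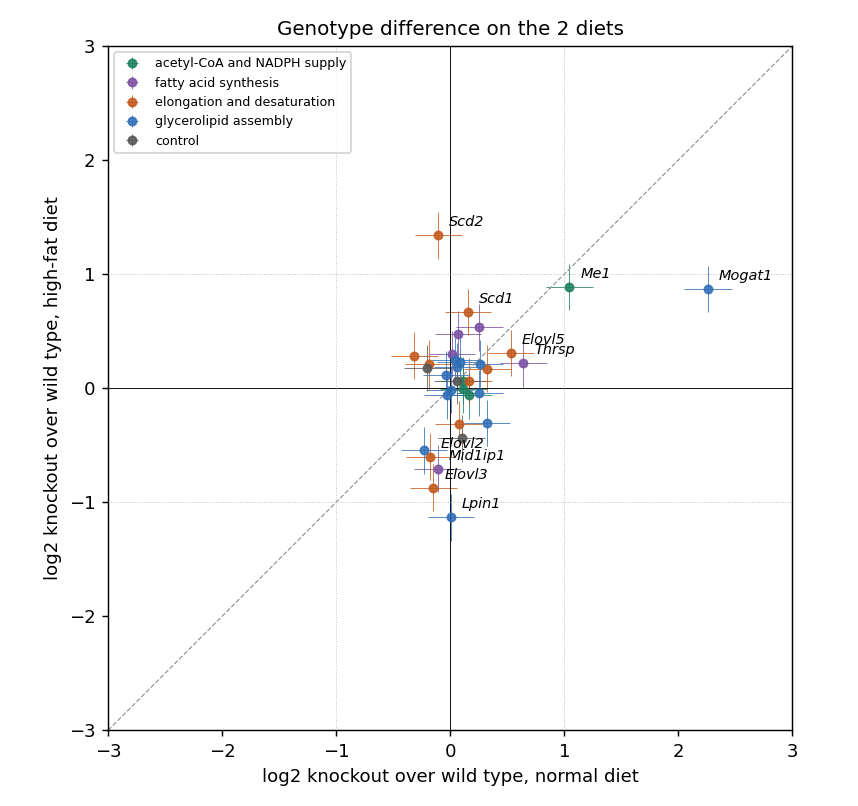
Genotype difference (knockout minus wild type, log2) of each member on normal diet on the horizontal axis and on high-fat diet on the vertical axis, for the same 34 genes and with the same bars. Me1 lies at 1.04 and 0.89, Mogat1 at 2.26 and 0.87 and Lpin1 at 0.01 and -1.13.

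The diet differences of the 2 genotypes share no array. Over the 34 members measured on all 4 arrays, they had a Pearson correlation of 0.66 and a Spearman correlation of 0.59, against 0.36 and 0.33 over 13551 genes. Without Mogat1 and Acss2, the farthest from the median on the wild-type axis, Pearson's value was 0.59. The sign was shared by 24 of the 34 (70.6%), against 62.7% of all genes. The genotype differences on the 2 diets, which also share no array, correlated at 0.42 (Spearman 0.34), against 0.19 (0.15) over all genes, and at 0.21 without Mogat1 and Me1. These values run across genes, which are not independent replicates, within pairs of single arrays scaled the same way.

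The difference between the 2 diet effects reached 2-fold for 3 members, Scd2 up and Mogat1 and Lpin1 down, against 3.73% up and 1.28% down over all genes. It was 1.45 ± 0.29 for Scd2, -1.39 ± 0.29 for Mogat1 and -1.14 ± 0.29 for Lpin1. With 1 array in each group it was not tested.

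An additive model of diet and genotype, fitted with limma over 14346 genes and 35 members, takes the interaction as its error. It called 0 genes for either effect after Benjamini-Hochberg adjustment. At an unadjusted p below 0.05 it gave 1425 genes for diet (9.93%), 13 of them members, and 1041 for genotype (7.26%), 3 of them members. The smallest adjusted p of a member was 0.41 for diet, for Acss2 (-1.49 ± 0.13, standard error), and 0.64 for genotype, for Me1 (0.96 ± 0.12).

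Of 40 further genes of the pathway outside the 36, 1 rose with diet in wild type, 2 with diet in the knockout, 1 with genotype on normal diet and 3 with genotype on high-fat diet, and 0 fell in any of these. Their medians were 0.00, -0.09, 0.14 and -0.02. Of those that could be called, the shares that rose were 2.63%, 5.41%, 2.63% and 8.11%. Over all genes they were 1.78%, 4.22%, 1.40% and 2.51%, and 1.59% to 2.50% fell. Gpat3, a glycerol-3-phosphate acyltransferase, followed the pattern of Mogat1 with levels of -0.71, 1.04, 0.71 and 1.88. It rose by 1.75 and 1.17 with diet and by 1.42 with genotype on normal diet, and gave 0.84 on high-fat diet. Elovl7 was dim, at -4.51, -4.94, -5.79 and -3.13, and well above background on 2 arrays. It was at least 5.06-fold higher with diet in the knockout, with a log2 error of 0.53. It was at least 3.51-fold higher with genotype on high-fat diet, with an error of 0.36. With genotype on high-fat diet, Scd3 rose from 0.62 to 1.72 and Mogat2 from -3.39 to -2.38. Of 20 lipogenic regulators, Ppargc1b, a coactivator of SREBP, fell by 1.03 with diet in the knockout (5%, against 1.64% of all genes). The other 19 were not called in any of the 4 comparisons. Some came close: Pparg gave 0.97 and Irs2 -0.91 for genotype on normal diet, and Insig1 -0.85 for diet in wild type.

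Sterol genes, many of them SREBP targets, fell on high-fat diet. Of 23 sterol synthesis and uptake genes, 15 fell with diet in wild type (65.2%, against 2.31% of all genes, median -1.15). In the knockout 10 fell (43.5%, against 1.64%, median -0.88). Sqle, Idi1, Nsdhl and Fdps were among those that fell in both genotypes. Of 13 lipid droplet proteins that could be called, 4 rose with diet in wild type (median 0.56), 2 in the knockout (0.42), 4 with genotype on normal diet (0.40) and 3 on high-fat diet (0.40). These shares were 30.8%, 15.4%, 30.8% and 23.1%, against 1.78%, 4.22%, 1.40% and 2.51% of all genes. Of 18 mitochondrial fatty acid oxidation genes, 0 were called, with medians of 0.21 and -0.06 for diet.

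**Figure D5:**
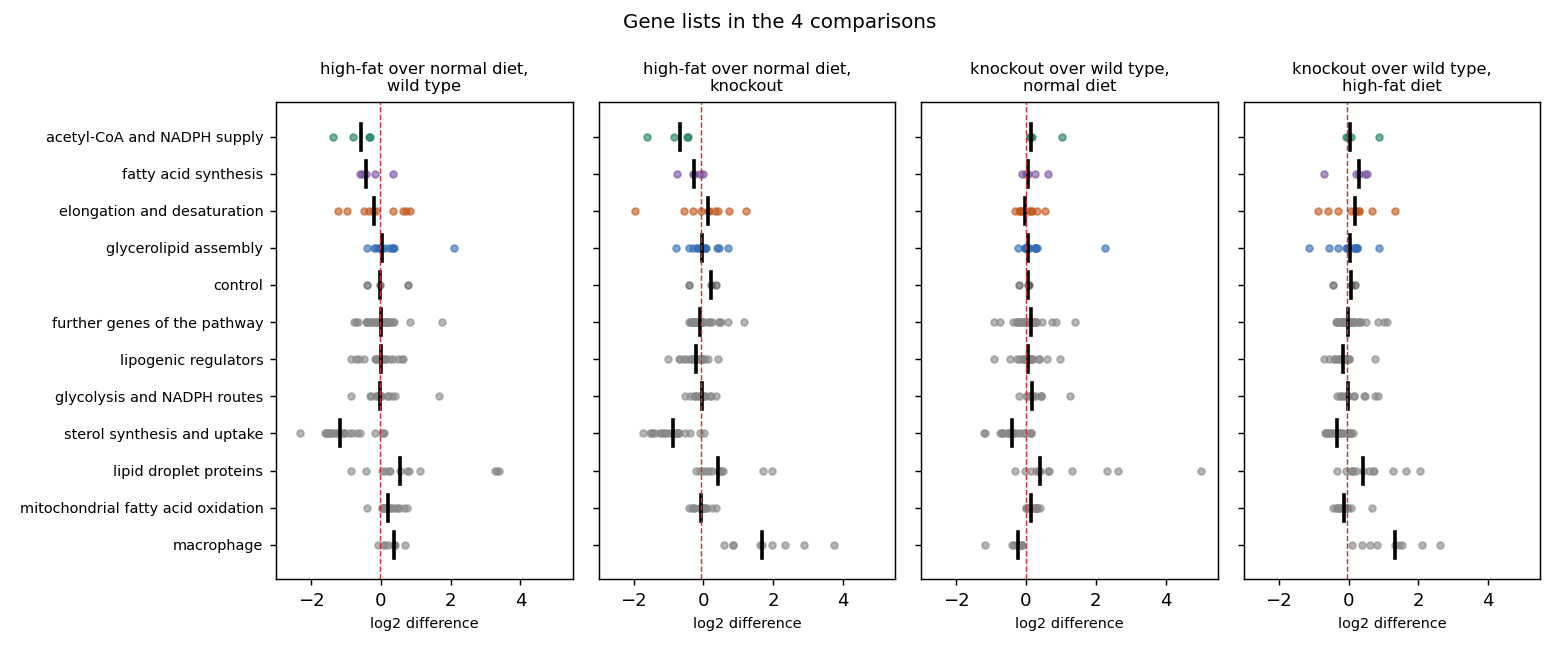
Log2 differences of the genes of each member step (coloured) and other list (grey) in the 4 comparisons, with the black bar as the list's median and the red dashed line as the median of all genes. The sterol list sits at -1.15 for diet in wild type and the supply step at -0.56.

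Some markers of other cell types were also higher in knockout liver on high-fat diet, the array on which Scd2, Pnpla3 and Pnpla5 were high and Lpin1 low. The summed signal of 9 macrophage markers, scaled to the array's 75th percentile, was 38.8, 46.7, 31.9 and 84.6. The brightest probes weigh most in such a sum, so a sum can move against most genes of its list. With diet in the knockout 6 of the 9 rose (66.7%, against 4.22% of all genes, median 1.68). With genotype on high-fat diet 5 rose (55.6%, against 2.51%, median 1.33). Of 8 stellate cell markers, 3 rose with diet in the knockout (37.5%, against 4.22%), and their summed signal was 55.4, 61.8, 48.1 and 73.0. Of 5 neutrophil markers that could be called, 3 rose (60%, against 4.22%) and 1 fell (20%, against 1.64%) with diet in the knockout. Their median over 4 was 2.26. With genotype on high-fat diet 3 rose (60%, against 2.51%, median 1.28 over 3). Of 6 lymphocyte markers, 0 were called in these comparisons, and the list's summed signal was 49.0, 44.2, 32.0 and 28.8. The summed signal of the 10 hepatocyte markers was 3634, 3426, 3505 and 2838. In bulk RNA, fewer cells of a type and less RNA per cell cannot be told apart, and the part of these shifts in the member values was not tested. The adipocyte list summed to 345, 303, 394 and 251, and its defining genes Adipoq, Plin1 and Lep were not well above background on any array. Its sum was lower on high-fat diet in the knockout, though there 5 genes had positive differences and 2 negative. Of its 7 genes that could be called, 3 and 2 rose with diet in wild type and in the knockout, and 1 and 2 with genotype on normal and high-fat diet, with 0 fallen and medians of 0.64, 0.42, 0.54 and 0.54. Cidea, also a lipid droplet gene, and Cfd were among them. The shares of adipocyte genes that rose were 42.9%, 28.6%, 14.3% and 28.6%, against 1.78%, 4.22%, 1.40% and 2.51% of all genes.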

How the data were processed

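Liver RNA was read on 1-colour Agilent 44K mouse arrays, 1 per group, all on 1 slide in 1 scan. The deposited scanner files give linear spot intensity from Feature Extraction 11.5.1.1, per the file headers, and the authors extracted values with GeneSpring GX 7.3, per the series' design text. The deposited value table of the series holds linear, uncentred intensity. It lay within 1% of the mean processed signal for 99.8% of probes, and its medians were 79.9, 75.9, 72.4 and 89.2. How the authors scaled values for their own comparison is not given in the sources used here.

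Control spots and outlier-flagged spots (98 to 186 an array) were left out, a flagged spot being kept where every spot of its probe was flagged. The log2 processed signals of a probe's spots were averaged, and each array was set to its 75th percentile over 39429 probes. Accessions without version named 27508 probes through a RefSeq table of assembly GRCm38.p6, giving 20886 genes, of which 5512 had several probes. The probe with the highest mean stood for its gene, and 10 members had more than 1 probe. Normexp background correction (offset 50) used the median spot signal, and median background, in place of the mean signal first planned.

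The 36 genes, the lists and the rule for named genes were chosen with earlier results of these data known. By that rule, members called in at least 1 diet or genotype comparison, and the member with the largest difference in a step without a call, are given on all 4 arrays. Other list genes are the called ones with the largest differences, up to 4 a list. Scd1, Nr1d1 and a few others were named after their values were seen. The additive model (limma 3.58.1, R 4.3.3) took genes detected above background on 2 or more arrays. Python 3.11.15, numpy 2.4.6, pandas 2.3.3 and matplotlib 3.10.9 did the rest. The size rule and model were run on simulated data that held scanner error only. Such data lack the spread between animals, so they cannot show how the rule or model performs under it. Results for a few listed genes outside the 36 are not reported here.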

Additional observations from a re-analysis of the deposited data

Results flagged for a closer look

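The measured diet difference had opposite signs in the 2 genotypes for 2 members whose gap reached 2-fold. For Scd2 it was -0.23 ± 0.21 in wild type and 1.22 ± 0.21 in the knockout, a gap of 1.45 on the log2 scale. For Lpin1 it was 0.35 ± 0.20 in wild type and -0.79 ± 0.20 in the knockout, a gap of -1.14, and -1.43 on its second probe. Both wild-type differences lie within 2 scanner errors of 0, so their sign is not established. With 1 array in each group, the difference between genotypes was not tested for either gene. On the same array as the high Scd2 and the low Lpin1, the knockout on high-fat diet, the summed macrophage marker signal was 84.6, against 31.9 to 46.7 on the other arrays. Its part in these values was not tested.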

How the results depend on the processing

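No paired analysis was possible because each group has 1 array and all arrays carry the same replicate number. No replicate could be left out for the same reason. No member value that was called changed sign under median scaling, quantile normalization, cyclic loess, normexp correction, the deposited value table, the mean of all probes or no filter on dim probes. Values near 0 can: median scaling moves every diet difference by 0.09 in wild type and every one in the knockout by -0.11, which turns the -0.03 of Insig2 in wild type positive. At 1.5-fold the members called up and down became 5 and 5 for diet in wild type, 4 and 5 for diet in the knockout, 6 and 4 for genotype on high-fat diet, and 2 and 5 for the gap between diet effects. With normexp correction, 1 member was called up for diet in the knockout and 1 for genotype on high-fat diet, since Pnpla5 gave 0.57 and 0.68 and Pnpla3 0.56. With the mean of all probes, 1 was called up for genotype on normal diet, Me1 giving 0.87, and Acly gave -1.05 for diet in wild type. That setting also called 3 up for diet in the knockout, against 2 as reported. With no filter, 3 were called up and 2 down for the gap, against 1 and 2 as reported, and 3 down for diet in wild type, against 2. Me1 reached 1.06 under quantile normalization and 1.03 under cyclic loess for genotype on high-fat diet. The member median ran from -0.18 to 0.12 for diet in the knockout and from -0.27 to 0.02 for the gap, so its sign depends on the scaling. It ran from -0.15 to -0.06 for diet in wild type, from 0.07 to 0.21 for genotype on normal diet and from 0.09 to 0.22 on high-fat diet. Median scaling moved the all-gene gap by -0.20, and its calls from 505 up and 173 down to 308 and 297. Over all genes, normexp correction called 121 up and 152 down for diet in wild type, 271 and 138 in the knockout, 102 and 143 for genotype on normal diet, 142 and 121 on high-fat diet and 233 and 93 for the gap. With no filter the counts were 624 and 927, 1170 and 625, 603 and 1008, 855 and 541, and 1679 and 864. At 1.5-fold they were 651 and 953, 1419 and 847, 572 and 977, 1090 and 647, and 1288 and 687. The additive model called 0 genes in the alternatives run, with 1050 to 1526 genes at an unadjusted p below 0.05. Signal over background limits Pnpla3 and Pnpla5, and 1 array a group limits every value.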

Other observations

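Fasting and feeding genes and clock genes were also read on these arrays. Fgf21, a hormone of fasting, rose with diet, by 2.13 for wild type and 2.67 for the knockout. Igfbp1, which insulin lowers, fell by 2.42 with genotype on normal diet and by 1.16 on high-fat diet. It also fell by 1.00 with diet in wild type, while in the knockout 0 of 12 fasting and feeding genes fell with diet. Ciart, a clock repressor, rose by 1.61 with diet in wild type and by 1.37 with genotype on normal diet, and fell by 1.11 with genotype on high-fat diet.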
